A study of Mus musculus with 4 samples.

Results

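The blood-testis barrier was followed here through 9 genes that build the junctions of Sertoli cells, the somatic cells that line the seminiferous tubule and hold the germ cells. They are Cldn11, Ocln, F11r and Jam3 of the tight junction membrane, the scaffold gene Tjp1, the gap junction gene Gja1, the adherens junction genes Cdh2 and Ctnnb1, and Espn of the actin bundles. The 9 were chosen by symbol, through the Ensembl identifiers of the deposited count table, from a total of 57010 identifiers. Testis RNA came from male ICR mice that all received busulfan (BUS, an alkylating agent that kills dividing germ cells) as 1 intraperitoneal injection of 30 mg/kg. After 2 weeks, daily gavage was begun for 4 weeks, with the DMSO and corn oil vehicle in the BUS group and with the triterpenoid ursolic acid (ULA, 50 mg/kg) in the BUS+ULA group. The mice were 8 weeks old when purchased, and each group had 2 libraries, which the methods call biological replicates. The deposited counts hold no library of the study's untreated group or of its lower ULA doses, so levels in untreated testis are not known here. No source says which animals gave the libraries, so the p-values measure the spread between these libraries only.

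Tight junctions between neighbouring Sertoli cells divide the tubule into a basal part, where spermatogonia sit, and an inner part, where meiosis and spermatid formation take place. Claudins, occludin and the JAM proteins span the membrane and are tied to actin by the zonula occludens scaffolds, connexins form the channels of gap junctions, and N-cadherin with beta-catenin forms the adherens junction. In the testis these junctions are braced by the ectoplasmic specialization, a layer of bundled actin that also holds the heads of elongating spermatids, and the whole structure opens and closes as germ cells cross it. Several of these proteins are made by other testis cells as well, among them Gja1 by Leydig cells, Jam3 by spermatids and Tjp1 by endothelium.

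Sequences upstream of 3 members are shown for Cldn11, for F11r, the member nearest to it in profile over the libraries, and for Tjp1, whose groups overlapped. Each is the 250 bases before the gene's annotated start from RefSeq (GRCm38.p6), written 5′ to 3′ on the gene's strand. Capitals mark the GC box (letters GGGCGG) and the CCAAT box (letters CCAAT) on either strand; no match of the one overlapped a match of the other in these 3 windows. Cldn11 is shown from chr3:31149670-31149919 on the plus strand, F11r from chr1:171437311-171437560 on the plus strand and Tjp1 from chr7:65371245-65371494 on the minus strand, before a RefSeq start that lies inside the longer GENCODE gene model.
Cldn11: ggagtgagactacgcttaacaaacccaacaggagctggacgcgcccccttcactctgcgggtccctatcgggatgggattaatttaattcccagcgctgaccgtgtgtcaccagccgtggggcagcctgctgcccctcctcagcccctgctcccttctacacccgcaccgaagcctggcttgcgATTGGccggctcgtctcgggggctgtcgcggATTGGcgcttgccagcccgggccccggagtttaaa
F11r: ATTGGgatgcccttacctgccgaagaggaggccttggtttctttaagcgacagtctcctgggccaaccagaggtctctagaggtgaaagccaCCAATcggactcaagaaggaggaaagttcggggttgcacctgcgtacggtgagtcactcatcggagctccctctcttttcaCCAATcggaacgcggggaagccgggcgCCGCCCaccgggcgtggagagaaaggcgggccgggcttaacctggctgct
Tjp1: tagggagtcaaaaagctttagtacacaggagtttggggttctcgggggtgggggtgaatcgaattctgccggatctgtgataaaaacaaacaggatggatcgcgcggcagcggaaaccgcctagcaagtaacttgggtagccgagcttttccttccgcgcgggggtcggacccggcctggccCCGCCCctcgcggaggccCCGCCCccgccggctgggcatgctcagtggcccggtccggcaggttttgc
The Cldn11 window held 2 CCAAT boxes and no GC box, the F11r window 3 CCAAT boxes and 1 GC box, and the Tjp1 window 2 GC boxes and no CCAAT box. Among 32851 promoter windows of this length, 33.8% held a CCAAT box and 32.7% a GC box, so these matches are a description only. Promoter entries were found for 7 of the 9 members.

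The deposited values are whole, unnormalized counts, with 15078828 to 18216380 per library. All 9 members had enough counts for the test. Levels are given as CPM, counts relative to a library size that was scaled by TMM, a correction for differences in composition. The libraries did differ in composition. Protein-coding genes took 96.3% to 96.9% of the counts with BUS and 76.9% to 87.4% with BUS+ULA. The unnamed identifier ENSMUSG00000119584 took 0.000637% to 0.00418% with BUS and 7.88% to 18.5% with BUS+ULA. Lars2 took 0.00189% to 0.0026% with BUS and 0.714% to 1.31% with BUS+ULA. These differences ran between the groups, so they cannot be separated from treatment in any fold change given here. Whether RNA quality or library preparation had a part in them was not tested. All 22 markers of Sertoli cells and all 10 markers of spermatids had counts, so the defining markers of testis were present.

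Of the 4 tight junction membrane genes, Cldn11, F11r and Ocln fell with BUS+ULA and Jam3 did not pass the test. Cldn11 (ENSMUSG00000037625, GRCm38 chromosome 3 from 31149920 to 31164324), which encodes the claudin that forms the Sertoli cell barrier strands, had 309.5 and 138 CPM with BUS against 93.9 and 63.6 CPM with BUS+ULA. Both BUS+ULA libraries lay below both BUS libraries, although the BUS libraries themselves stood 1.16 apart on the log2 scale. The means were 224 ± 121 and 78.7 ± 21.4 CPM (SD, n = 2 libraries each), 2.84-fold lower with BUS+ULA. In the quasi-likelihood fit of edgeR the log2 fold change was -1.51 with a standard error of 0.37 (adjusted p = 0.0214). F11r (ENSMUSG00000038235, chromosome 1 from 171437535 to 171464603) encodes JAM-A, an immunoglobulin-like adhesion protein of tight junctions. It had 133.5 and 65.8 CPM with BUS and 43.1 and 30.8 CPM with BUS+ULA, again with no overlap. Its log2 fold change was -1.43 with a standard error of 0.34 (adjusted p = 0.0193 from edgeR).

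Ocln (ENSMUSG00000021638, chromosome 13 from 100496507 to 100552718), which encodes occludin, a 4-pass membrane protein that seals the strands, had the lowest level per length in both groups. It had 27.0 and 12.4 CPM with BUS against 7.81 and 7.29 CPM with BUS+ULA. The BUS+ULA libraries were close together and both below the BUS libraries, with a log2 fold change of -1.38 and a standard error of 0.39 (adjusted p = 0.0308 from edgeR). The call was lost with limma-voom (adjusted p = 0.0576, in a range of 2.59e-08 to 0.794 over the 17 alternative fits). Jam3 (ENSMUSG00000031990, chromosome 9 from 27097384 to 27155421) encodes JAM-C, an adhesion protein that in mouse is needed for spermatid polarity. It had 62.1 and 29.9 CPM with BUS and 25.4 and 20.1 CPM with BUS+ULA, without overlap, but its log2 fold change of -1.02 (95% interval -1.80 to -0.23) missed the threshold (adjusted p = 0.0561 from edgeR). With DESeq2 it passed (adjusted p = 0.0302, in a range of 1e-07 to 0.445 over the 17 alternative fits). An antisense gene, Gm48796, covers 36.2% of the exon bases of Jam3 and had 42 to 150 counts per library of its own. Whether reads were counted by strand is not stated, so the reads of this pair may not be told apart.

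Unlike those of the membrane genes, the groups overlapped for Tjp1. Tjp1 (ENSMUSG00000030516, chromosome 7 from 65296165 to 65527781), which encodes the scaffold ZO-1 that anchors claudins, occludin and JAMs to actin, had 166 and 130 CPM with BUS and 159 and 152 CPM with BUS+ULA. The BUS+ULA libraries lay between the BUS libraries. The log2 fold change was 0.07 with a 95% interval of -0.45 to 0.58 (adjusted p = 0.837 from edgeR). Its sign depended on the scaling: it was -0.15 with library size alone (adjusted p = 0.753) and -0.025 with no filter beyond 1 count (adjusted p = 0.947), and adjusted p ranged from 0.0997 to 0.955 over the 17 alternative fits. Since the counts of both genes come from the same library, the ratio of Cldn11 to Tjp1 counts does not depend on the scaling. It was 1.86 and 1.06 with BUS and 0.592 and 0.419 with BUS+ULA. The ratio of F11r to Tjp1 counts was 0.803 and 0.506 with BUS and 0.271 and 0.203 with BUS+ULA. Neither ratio overlapped between the groups, but since the fitted change of Tjp1 was near 0, both ratios mostly restate the levels given above. With 2 libraries against 2, no exact test of a single ratio could pass the threshold.

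**Figure D1:**
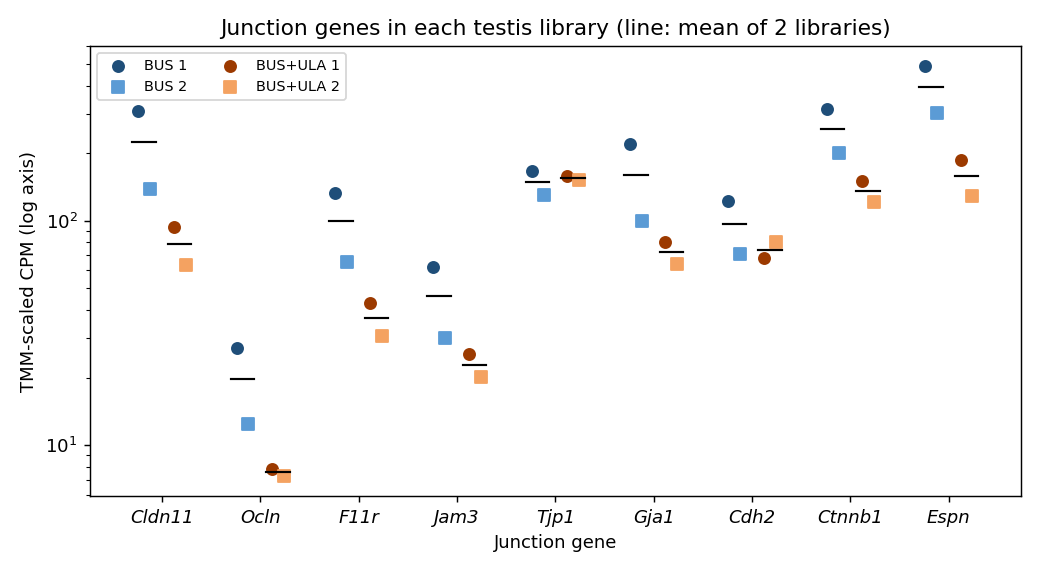
TMM-scaled CPM (log axis) of the 9 junction genes in each of the 4 testis libraries, with a line at the mean of each group of 2. The BUS+ULA libraries lie below both BUS libraries for 7 genes, and overlap them for Tjp1 and Cdh2.

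Of the gap and adherens junction genes, Gja1 and Ctnnb1 were lower and Cdh2 did not pass the test. Gja1 (ENSMUSG00000050953, chromosome 10 from 56377330 to 56402513), which encodes connexin 43, the main channel protein between Sertoli cells and germ cells, had 220.0 and 100.1 CPM with BUS and 80.7 and 64.1 CPM with BUS+ULA. All BUS+ULA values lay below the BUS values, by 0.31 on the log2 scale at the nearest pair. The log2 fold change was -1.14 with a standard error of 0.35 (adjusted p = 0.0407 from edgeR). The call was lost with upper-quartile factors (adjusted p = 0.0739), limma-voom (0.0686) and protein-coding genes alone (0.0714), in a range of 8.74e-10 to 0.623 over the 17 alternative fits.

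Ctnnb1 (ENSMUSG00000006932, chromosome 9 from 120929216 to 120960507), which encodes beta-catenin, the cadherin partner that also carries Wnt signals, had 314 and 201 CPM with BUS and 150.4 and 121 CPM with BUS+ULA. Its log2 fold change was -0.92 with a standard error of 0.27 (adjusted p = 0.0368 from edgeR), the smallest of the members that passed. The call was lost with upper-quartile factors (adjusted p = 0.113), protein-coding genes alone (0.0814) and a GC content and length offset (0.0801), in a range of 1.54e-05 to 0.554 over the 17 alternative fits, and without BUS+ULA replicate 1 (0.117). The opposite-strand gene Ulk4 covers 14.6% of its exon bases and had 2982 to 4550 counts per library. Cdh2 (ENSMUSG00000024304, chromosome 18 from 16588877 to 16809246), which encodes N-cadherin, had 122 and 71.3 CPM with BUS and 68.3 and 80.1 CPM with BUS+ULA. The groups overlapped, and the log2 fold change was -0.38 with a 95% interval of -1.02 to 0.25 (adjusted p = 0.318 from edgeR). This gene rested on single libraries: the value was 0.04 without BUS replicate 1 (adjusted p = 0.931) and -0.73 without BUS replicate 2 (adjusted p = 0.00766). Over the 17 alternative fits it reached 1.19, with library sizes set to the Sertoli cell markers (adjusted p = 0.141).

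Espn (ENSMUSG00000028943, chromosome 4 from 152120331 to 152152371), which encodes espin, the actin-bundling protein of the ectoplasmic specialization, fell as well. It had 488 and 302 CPM with BUS and 187 and 129 CPM with BUS+ULA. The distance between the nearest libraries of the groups, 0.69 on the log2 scale, was the widest of the 9. The log2 fold change was -1.32 with a standard error of 0.30 (adjusted p = 0.0167 from edgeR). Its longest transcript had the highest GC content of the members, 62.1%, and with an offset for GC content and length in each library the log2 fold change was -0.19 (adjusted p = 0.625, in a range of 1.14e-08 to 0.888 over the 17 alternative fits).

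**Figure D2:**
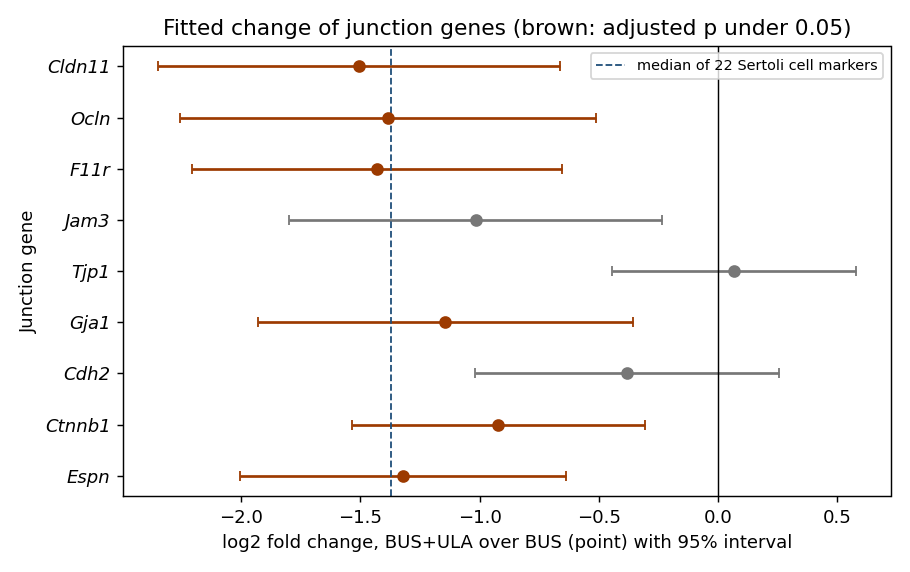
Fitted log2 fold change of the 9 junction genes, BUS+ULA over BUS, with its 95% interval from edgeR; brown marks an adjusted p under 0.05 and the dashed line is the median of 22 Sertoli cell markers, -1.37. The 6 brown genes lie between -1.51 and -0.92, while the intervals of Tjp1 and Cdh2 span 0.

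In edgeR's test at an adjusted p under 0.05, 6 of the 9 members fell, 3 did not pass and none rose. Across all 23023 genes tested, 15.3% fell and 11.8% rose. Of the protein-coding genes 20.5% fell, and among the 10683 protein-coding genes with a mean of at least 10 CPM, 23.3% fell. The count of members that rose was also 0 at an unadjusted p under 0.05, with DESeq2 and with limma-voom. The median log2 fold change of the members was -1.14, and that of all genes tested was 0.02. The groups did not overlap, with BUS+ULA lower, in 7 of 9 members and in 37.2% of all genes tested. At the rule of a fold over 1.5 with an unadjusted p under 0.05, 7 of 9 fell, against 22.7% of all genes tested. The balance over all genes turned with upper-quartile scaling, from 2706 higher and 3512 lower to 4282 and 2364, and 4 members fell in that fit (Cldn11, Ocln, F11r and Espn).
Without BUS+ULA replicate 2 the calls of the members were lost, and calls over all genes became fewer. This library had the lowest levels of the 7 genes that did not overlap. It also had the lowest protein-coding share of the 4 libraries, 76.9%, and the highest share of ENSMUSG00000119584, 18.5%. Whether its composition had a part in these calls was not tested. Without BUS+ULA replicate 2 the log2 fold changes were -1.23 for Cldn11 and -1.19 for F11r. Without BUS replicate 1, the library with the highest levels of all 9, calls also became fewer among the members and over all genes. The log2 fold changes were then -0.83 for Cldn11, -0.85 for F11r, -0.95 for Espn, -0.74 for Ocln, -0.58 for Ctnnb1 and -0.48 for Gja1. Such a fit leaves a lone library in 1 group, whose spread is assumed to be that of the other group.

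Compared per length of the longest annotated transcript, the order of the levels also differed between the groups. With BUS the mean CPM per kilobase was 120 for Cldn11, 85.6 for Espn, 71.0 for Ctnnb1, 41.2 for Gja1, 39.6 for F11r, 23.7 for Jam3, 21.0 for Tjp1, 20.0 for Cdh2 and 4.87 for Ocln. Neighbours in this order overlapped between libraries, except that Ocln lay below all others. With BUS+ULA the level of Tjp1, between 21.5 and 22.5 CPM per kilobase, came next after Cldn11 (42.1), Ctnnb1 (37.5) and Espn (34.2), and the libraries of Tjp1 overlapped neither those of Espn nor those of Gja1 (18.6). Cdh2 (15.3), F11r (14.7) and Jam3 (11.7) followed, each overlapping its neighbour, with Ocln at 1.86. The order depends on the length used. Over all exon bases the level of Gja1 was 15.6 with BUS and 7.06 with BUS+ULA, Espn (47.8) came after Ctnnb1 (49.6) with BUS, and with BUS+ULA Tjp1 (19.9) came before Espn (19.1).

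Set against the Sertoli cell markers, Cldn11, F11r, Espn and Ocln overlapped between the groups and the other members did not. In whole testis, fewer cells of a type, less RNA per cell and a larger share of RNA from other cells cannot be told apart. In a list of 22 Sertoli cell markers, edgeR's test found 16 that fell (15.3% of all genes) and 6 that did not pass. Whether other testis cells add to the counts of these markers, and so to the ratios below, was not tested. All 22 had a log2 fold change below 0, from -2.37 to -0.38, with a median of -1.37. Their summed level was 7930 and 4057 CPM with BUS and 2579 and 1640 CPM with BUS+ULA. What part this had in the lower levels of the members was not tested, and the ratios that follow only describe the counts. Cldn11 counts were 3.90% and 3.41% of the summed marker counts with BUS, and 3.64% and 3.88% with BUS+ULA. The groups overlapped and differed by 0.04 on the log2 scale. F11r counts were 1.68% and 1.62% of the sum with BUS, and 1.67% and 1.88% with BUS+ULA, a difference of 0.10. Espn (0.16) and Ocln (0.18) also overlapped between the groups.
The others took a larger proportion with BUS+ULA, without overlap. The marker sum itself had a log2 change of -1.46, so a gene with steady CPM also takes a larger proportion. How many of all genes did so without overlap was not counted. Tjp1 counts were 2.10% and 3.21% of the sum with BUS and 6.15% and 9.25% with BUS+ULA, 2.91-fold higher by the difference of the group means on the log2 scale. No exact test of 2 against 2 ratios can pass the threshold. Cdh2 counts were 1.54% and 1.76% of the sum with BUS, and 2.65% and 4.89% with BUS+ULA. The log2 differences of the remaining genes were 0.57 for Ctnnb1, 0.53 for Jam3 and 0.42 for Gja1. In an edgeR fit with library sizes set to the summed markers, no member passed in either direction, at the adjusted or the unadjusted threshold. Standard errors were wider there, 0.721 for Cldn11 and 0.789 for Tjp1 against 0.373 and 0.227 in the main fit. The lack of a call in this fit therefore does not show equal levels. The log2 fold change was 0.04 for Cldn11 (adjusted p = 0.968) and 1.54 for Tjp1 (adjusted p = 0.0997), and the median of all genes tested was 1.43. This median lay above the value of every member but Tjp1, and 8521 of 23023 genes rose in this fit. Clu took 43.7% to 49.6% of the marker sum. Without Clu, a denominator chosen after seeing the data, the log2 difference was -0.06 for Cldn11 and 1.44 for Tjp1. With the geometric mean of the markers, also chosen after seeing the data, it was -0.13 for Cldn11, -0.08 for F11r, -0.015 for Espn, 0.36 for Jam3 and 1.37 for Tjp1.

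**Figure D3:**
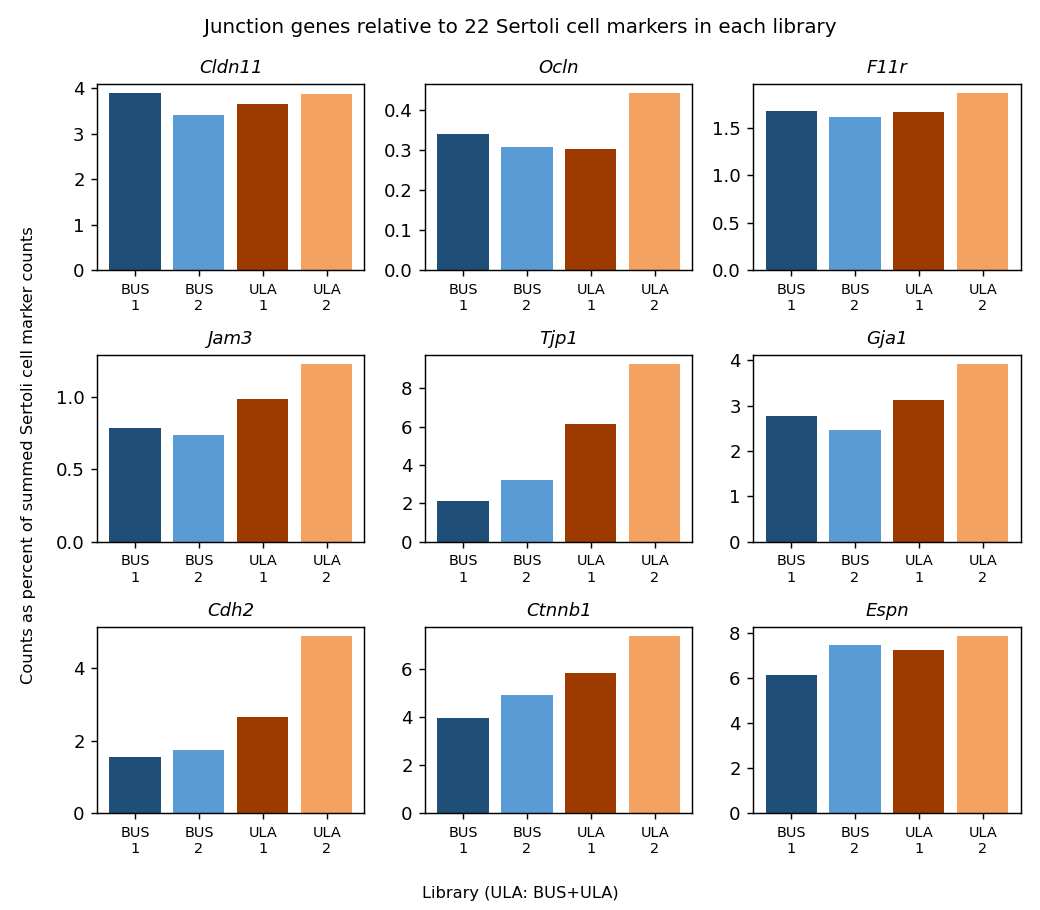
Counts of each junction gene as a percent of the summed counts of 22 Sertoli cell markers in each library (bars from 0; 1 bar is 1 library, ULA stands for BUS+ULA). Cldn11, Ocln, F11r and Espn overlap between the groups, and Tjp1 and Cdh2 are higher in both BUS+ULA libraries, at 6.15% and 9.25% for Tjp1.

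Markers of some other testis cells moved as well, where 15.3% of all genes fell and 11.8% rose. The summed level of 10 Leydig cell markers was 6439 to 9191 CPM with BUS and 868 to 1509 CPM with BUS+ULA (10 of 10 fell), that of 10 endothelial markers 124 to 202 and 85.3 to 92.8 (4 of 10 fell), and that of 10 spermatid markers 2960 to 4147 and 7954 to 12040 (8 of 10 rose); each of these markers had counts. For 10 spermatocyte markers the sum was 2372 to 3394 CPM with BUS and 4333 to 4448 CPM with BUS+ULA, and 1 of 10 rose. Of 10 peritubular markers 5 fell and 1 rose, and of 10 spermatogonium markers 2 fell. The spermatocyte and spermatogonium counts lie near the shares over all genes. None of 10 macrophage markers passed, nor any tested marker of rete testis or epididymis epithelium (5) or of blood (5). The part of these cells in the levels of Gja1, Jam3, Tjp1 and Cdh2 was not tested. The 2 BUS libraries differed in the same direction: the Sertoli marker sum was 1.95 times as high in BUS replicate 1 as in replicate 2, and all 9 members were higher there, by 0.35 for Tjp1 to 1.16 for Cldn11 on the log2 scale.

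The genes closest to Cldn11 in profile were sought among 10682 protein-coding genes with a mean of at least 10 CPM, by distance in centred log2 CPM over the 4 libraries. They were Eps8 (distance 0.04), which encodes an actin-capping and bundling protein of the ectoplasmic specialization, Dtx1 (0.05), a Notch pathway ubiquitin ligase gene, and Axl (0.06), a receptor kinase gene of Sertoli cells that takes part in the uptake of dying germ cells. Of the members, F11r was nearest to Cldn11 (distance 0.13, place 45) and Tjp1 farthest (1.64, place 6086). With 4 libraries this is a description of their levels.

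Among 118 other junction genes in 6 lists by role, 104 were tested, of which 33 fell and none rose at an adjusted p under 0.05 from edgeR (15.3% of all genes fell and 11.8% rose, and 23.3% of protein-coding genes at 10 CPM or more fell). At an unadjusted p under 0.05, 4 were higher, and none rose with DESeq2 or limma-voom at the adjusted threshold. Their median log2 fold change was -0.54, against 0.02 for all genes tested. Calls among them became fewer without BUS+ULA replicate 2, as did those over all genes.
Of 15 other membrane proteins of tight junctions that were tested, 2 fell, a share near the 15.3% of all genes. Cldn5, a claudin found in blood vessels, had 19.1 and 13.2 CPM with BUS and 6.84 and 5.71 CPM with BUS+ULA. Its log2 fold change was -1.36 (adjusted p = 0.0187 from edgeR), and which testis cells gave its counts was not tested. Cldn23 had a log2 fold change of -2.36 (adjusted p = 0.0222 from edgeR), at a low level. A claudin that did not follow, named after its values were seen, was Cldn3, which in mouse is found at newly formed Sertoli cell junctions. It had 26.0 and 25.8 CPM with BUS and 34.5 and 47.5 CPM with BUS+ULA, a log2 fold change of 0.66 that did not pass the test (adjusted p = 0.0798 from edgeR). Per length, Cldn11 made up 75.8% and 65.5% of the summed level of 11 claudins with BUS, and 56.2% and 41.8% with BUS+ULA, with no overlap.

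Of 20 scaffold and polarity genes, 7 fell in edgeR's test, against 15.3% of all genes. The angiomotin-like gene Amotl2 had 89.9 and 27.96 CPM with BUS and 12.2 and 7.85 CPM with BUS+ULA, a log2 fold change of -2.55 (adjusted p = 0.0107 from edgeR). Those of the polarity genes Pard6b and Llgl1 were -1.58 and -1.48. Among the other connexins, the vascular connexin gene Gja4 fell, with a log2 fold change of -1.39 at a level under 6 CPM.
Of 17 other adherens and desmosome genes, 3 fell, a share near the 15.3% of all genes. Nectin2, which on Sertoli cells binds the nectin of spermatids, had 207 and 94.9 CPM with BUS and 60.0 and 63.1 CPM with BUS+ULA (-1.29, adjusted p = 0.0253 from edgeR). Its spermatid partner Nectin3, named after its values were seen, had 214 and 317 CPM with BUS and 371 and 464 CPM with BUS+ULA and did not pass (0.65, adjusted p = 0.0981 from edgeR). Ctnna1, which links the cadherin complex to actin, had a log2 fold change of -1.14, and Dsc2, a desmosomal cadherin gene, of -1.80.

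Of 26 genes of the ectoplasmic specialization and its actin regulators, 11 fell in edgeR's test, against 15.3% of all genes and 23.3% of protein-coding genes at 10 CPM or more. Lamc3, a laminin chain gene of the apical specialization, had 271 and 156 CPM with BUS and 91.5 and 54.7 CPM with BUS+ULA (-1.54, adjusted p = 0.0146 from edgeR). The tyrosine kinase gene Src and its inhibitor Csk had log2 fold changes of -1.51 and -1.33. Of 17 tested genes of junction turnover, 8 fell, with a median of -1.06 (0.02 over all genes). Timp2, an inhibitor of matrix metalloproteinases, had 806 and 548 CPM with BUS and 251 and 174 CPM with BUS+ULA (-1.67, adjusted p = 0.00826 from edgeR). Tnfrsf1a, a receptor for the barrier-opening cytokine TNF, had a log2 fold change of -1.82, and Rhoa, a switch of actin assembly, of -1.20. Tnf itself had 2 to 8 counts per library and was not tested.

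**Figure D4:**
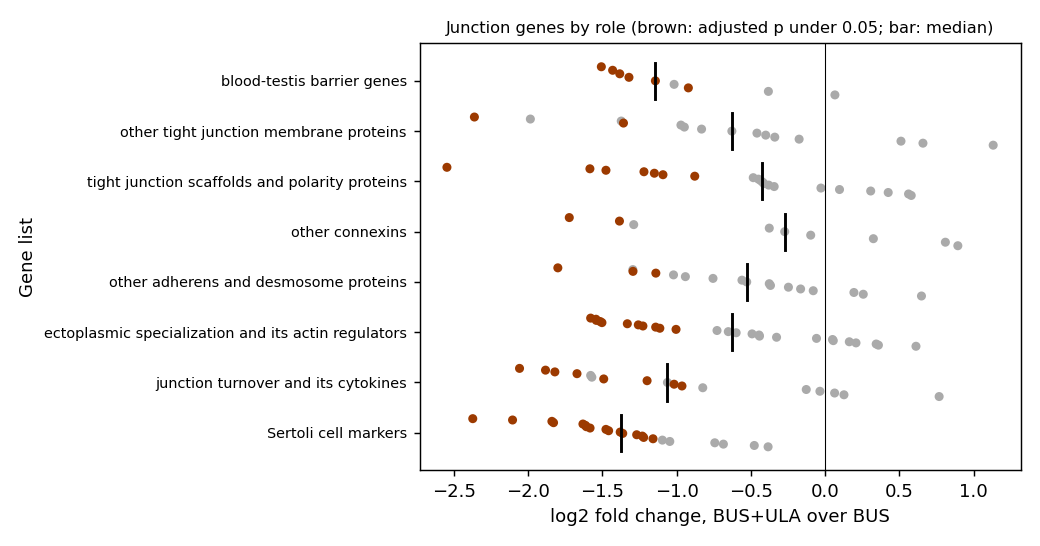
Fitted log2 fold change, BUS+ULA over BUS, of each tested gene (point) in 7 lists of junction genes and in the Sertoli cell markers; brown marks an adjusted p under 0.05 from edgeR and the bar is the list's median. Brown points lie on the lower side in every list, with a median of -1.14 for the blood-testis barrier genes and -1.37 for the Sertoli cell markers.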

How the data were processed

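Testis RNA was extracted with Trizol and sequenced on BGISEQ or MGISEQ instruments. The values deposited by the authors are raw counts, 1 row for each Ensembl gene. Fastp, STAR, GRCm38 and FeatureCounts are named in the paper, while the submitters' processing notes name RSEM 1.3.1, and which tool made the counts was not settled. The annotation release and strand setting are not given in the sources used here. Symbols (52081 of 57010 identifiers), coordinates, lengths and GC content come from GENCODE M21 (GRCm38). The other identifiers are not in that release, so the authors may have counted on another annotation. All 4 columns were matched to libraries by name, although those of BUS+ULA carry a further letter A that no source explains.

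Genes were kept by edgeR's filterByExpr (minimum count 10, total 15), scaled by TMM and fitted by quasi-likelihood (edgeR 4.0.16 under R 4.3.3). Adjusted p-values are Benjamini-Hochberg values over 23023 genes. Standard errors were derived from the F statistic. Profiles for the distance used log2(CPM + 0.5). A planned 18 alternatives (17 fits, 1 of them scaled to the Sertoli cell markers, and 1 other call rule; DESeq2 1.42.0, limma 3.58.1 and mgcv 1.9.3 among the tools) and 2 denominators chosen after seeing the data were run, and the steps were tested on simulated data. Named genes were the 9 members, up to 3 genes by p in each direction of each list, and the 3 nearest to Cldn11. Some genes that this rule names are not reported here. Members, lists and markers were chosen with earlier results of these data known. Libraries carry no batch label.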

Additional observations from a re-analysis of the deposited data

How the results depend on the processing

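No member rose in any of the alternatives. With 1 library left out, 0 to 8 members fell (6 with all libraries), 3 to 49 other junction genes fell and 0 to 4 rose, and over all genes 714 to 6429 fell and 656 to 5556 rose. With library sizes set to the summed Sertoli cell markers, 0 members and 0 other junction genes fell, 16 of the latter rose, and over all genes 36 fell and 8521 rose. In that fit the log2 fold changes of 8 members turned positive: 0.04 for Cldn11, 0.20 for Ocln, 0.42 for Gja1, 1.19 for Cdh2, 0.57 for Ctnnb1, 0.54 for Jam3, 0.10 for F11r and 0.15 for Espn. Other sign changes of the members' fitted values were confined to Tjp1, at -0.15 with library size alone, -0.025 with no filter beyond 1 count and -0.12 to 0.24 with a library left out (negative without BUS replicate 2), and to Cdh2, at -0.73 to 0.039 with a library left out (positive without BUS replicate 1). The median of all genes moved to 0.31 with upper-quartile factors, -0.20 with library size alone and 0.27 with no filter. Protein-coding genes alone gave 2258 genes that fell and 1475 that rose, with 2 of the other junction genes rising, as with the GC content and length offset. Upper-quartile factors gave 3 of the other junction genes rising and 4282 genes over all. The rule of an unadjusted p under 0.05 with a fold of 1.5 gave 4 and 4464.

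The replicate number is shared by the groups, and no source says that it pairs them. Deviations of same-numbered libraries correlated at 0.39 across genes. With the replicate block 7 members fell, 6 other junction genes rose, and 5901 genes fell and 5151 rose; with the block and the GC content and length offset these were 6, 12, 5872 and 4614. Over the 9 members, 114 of the fitted alternatives kept direction and side of the threshold, 19 lost the call, 8 gained it and 12 changed sign; apart from the settings above the causes were not tested. A count of 0 allows up to 0.148 to 0.238 CPM per library (3 counts), which covers counting error only.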
